A study of Mus musculus with 42 samples.

Results

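The genes described here encode subunits of the oxidative phosphorylation machinery that are made in the nucleus. They were chosen by symbol: a probe set, the group of array probes that reports 1 transcript, was a member when its annotation gave a single symbol of the Nduf (a, b, c, s or v), Uqcr, Cox (4 to 8, a to c) or Atp5 families. The rule found 153 of 45101 probe sets, which stand for 75 of 18194 genes. Of these genes 35 belong to complex I, 8 to complex III, 15 to complex IV and 17 to ATP synthase. The rule takes no cytochrome c gene and none of complex II, and its patterns miss Cox4i1, Cyc1 and Ndufab1. Ndufa4 and Ndufa4l2 were counted with complex I by their names, although Ndufa4 is now regarded as a complex IV subunit, and Cox7a2l is a factor that joins complexes into supercomplexes.

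In oxidative phosphorylation, complex I takes electrons from NADH and complex III passes them on to cytochrome c. Complex IV hands them to oxygen, and ATP synthase uses the proton gradient that results to make ATP. The catalytic centres lie in core subunits, while accessory subunits support assembly and stability, and some complex IV and ATP synthase subunits exist as isoforms that differ between tissues. Neurons that fire at high rates, as Purkinje cells do, draw most of their ATP from this pathway.

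Affymetrix MOE430.2 arrays were used on 2 kinds of inhibitory neuron of the mouse cerebellar cortex: Purkinje cells, its output neurons, and Stellate/Basket cells, the interneurons of its molecular layer. The animals, all labelled male, were untreated Gad67-GFP transgenic mice of strain CB6-Tg(Gad1-EGFP)G42Zjh/J, in which a Gad1 (Gad67) transgene marks inhibitory neurons with green fluorescent protein, so both cell types and all ages carry the same transgene. Cells were picked by hand for fluorescence and soma size from protease-treated slices kept with AP5, CNQX and TTX, blockers of glutamate receptors and sodium channels, and their RNA went through repeated amplification. Purkinje cells have 3 arrays for each of postnatal days 3 (P3), 7 and 14 and 4 arrays for each of days 21, 28, 35 and 56. Stellate/Basket cells were sampled at P14 and P28 (4 arrays each), P21 (3 arrays), and P35 and P56 (2 arrays each). Values are log2 expression, on which a difference of 1 is a doubling, and each group of arrays is described as labelled.

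The labelled cell types were set against marker genes, as the mean log2 value of each list. The 10 measured Purkinje markers lay between 12.53 and 12.89 in the Purkinje arrays from P14 to P56, but between 6.66 and 9.84 at P3 and P7. The 8 interneuron markers lay between 9.09 and 10.73 in the Stellate/Basket arrays from P14 to P35, and between 8.92 and 10.11 in the Purkinje arrays of P3 and P7. In the 2 arrays labelled Stellate/Basket P56, interneuron markers stood at 6.09 and 6.09 and Purkinje markers at 12.55 and 11.25, which goes against their label. The 3 markers shared by both sorted types were at 10.77 in replicate 1 and 9.23 in replicate 3 of these arrays. In all other arrays used they lay between 10.91 and 11.53. The 12 markers of astrocytes and Bergmann glia had Stellate/Basket group means of 7.37 (P14), 9.63 (P21), 10.56 (P28), 9.81 (P35) and 10.97 (P56), and they ran from 6.32 to 8.38 in the Purkinje arrays from P14 on. Xist, a transcript of female cells, was above 10 in 27 of the 40 arrays and below 8 in the other 13, although all were labelled male. It was above 10 in 13 of the 25 Purkinje arrays and in 14 of the 15 Stellate/Basket arrays, so its level is uneven between the cell types. With Xist as a covariate, the cell type average below called 38 members in place of 39. At P14 Xist was low in the 3 Purkinje arrays and high in the 4 Stellate/Basket arrays. Counts that rest on the P56 arrays are therefore given again from the ages up to P35 or without 1 of the 2 Stellate/Basket P56 arrays, and the Purkinje change from P3 is followed by the change from P14. Where P56 is left out of a difference, its arrays still enter the variance estimate.

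Averaged over the 5 shared ages, Purkinje arrays showed higher levels of many subunits of complexes I and III and of ATP synthase, while most complex IV subunits did not pass the test. Of the 74 members that passed the filter on dim genes, 36 were higher in Purkinje cells and 3 were lower at an adjusted p under 0.05 (limma, Benjamini-Hochberg adjustment over 17478 genes). The same test called 28.7% of all genes higher and 24.3% lower, so the share of members called in either direction was close to that of all genes (52.7% against 53.1%), with more of them higher than lower. The median member difference was 0.17 on the log2 scale, against 0.02 for all genes. After quantile normalization, which gives all arrays the same distribution, 29 members were higher and 7 lower. The median was then 0.08 for members and 0.04 for all genes. With the P56 arrays left out, the average over 4 ages gave 33 higher and 7 lower, against 32.9% and 22.5% of all genes. When a log2 difference of at least 1 was also required, 4 members were called, as were 11.5% of all genes. In bulk samples such as these, fewer cells of a type and less RNA per cell cannot be told apart.

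**Figure D1:**
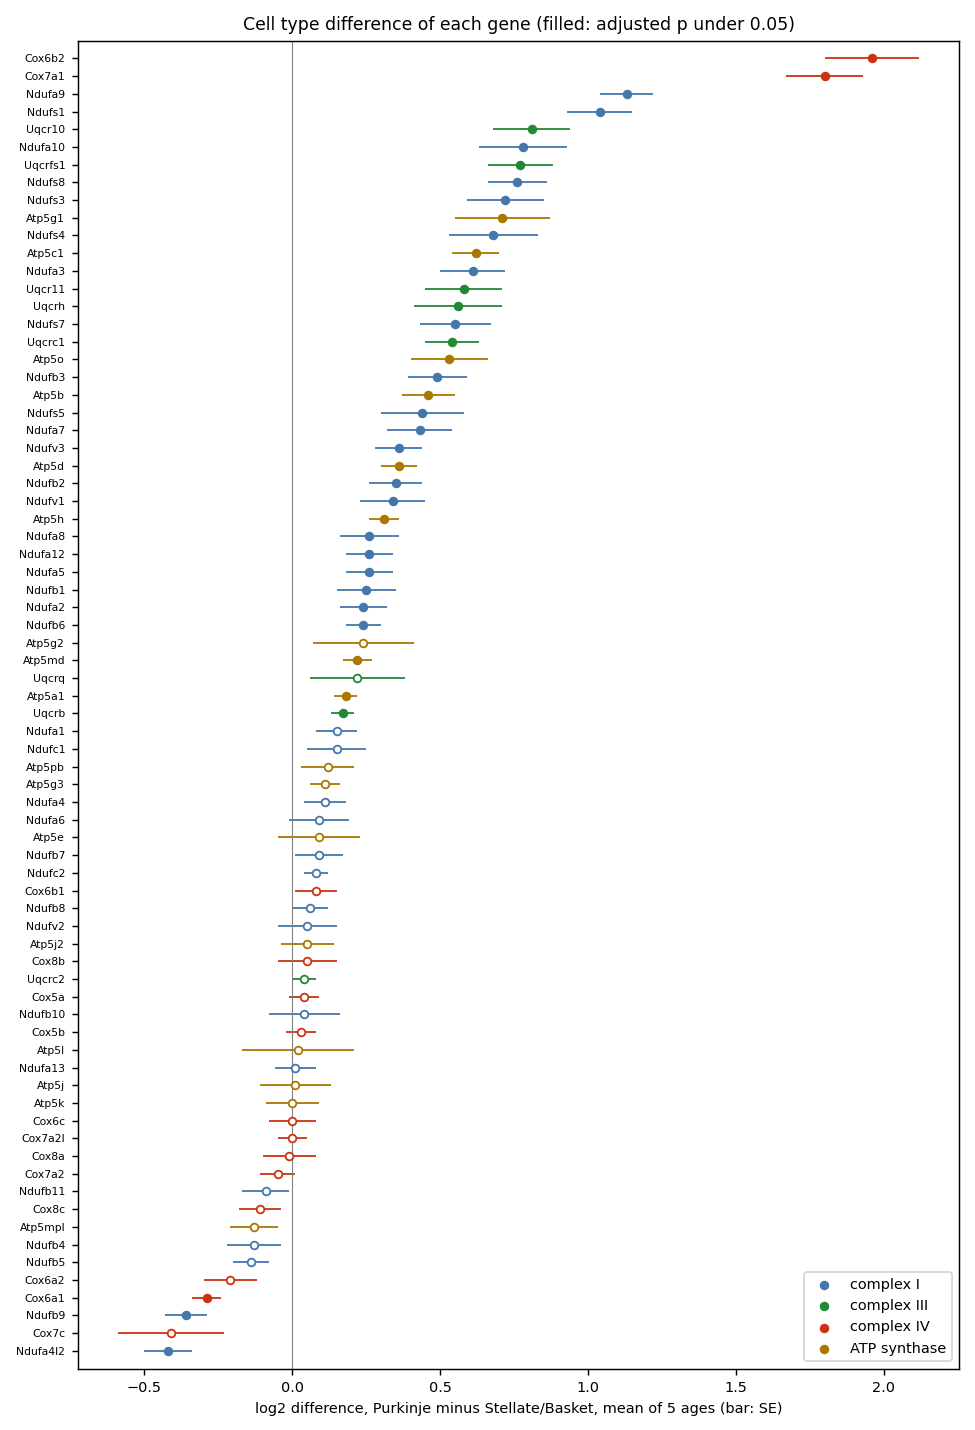
Log2 difference, Purkinje minus Stellate/Basket, averaged over the 5 shared ages (x axis) for each of the 74 tested genes (y axis), with bars for the standard error, colours for the complex and filled points for adjusted p under 0.05. Cox6b2 (1.96) and Cox7a1 (1.80) lie farthest to the right, 36 filled points lie to the right of 0 and 3 to the left.

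The core of complex I had the highest median difference among the groups of subunits. Purkinje arrays were higher for 5 of its 6 members, and the median difference was 0.63. Ndufs1, the large iron-sulphur subunit of the electron-input arm, was higher by 1.04 ± 0.11 (SE, adjusted p = 2.8e-09, from 25 Purkinje and 15 Stellate/Basket arrays). Ndufs8, Ndufs3 and Ndufs7, which line the electron path towards ubiquinone, were higher by 0.76, 0.72 and 0.55, and Ndufv1, the NADH-binding flavoprotein, by 0.34. Ndufv2, the other flavoprotein-side core subunit, differed by 0.05 and did not pass. Over the 4 ages without P56, 4 of the 6 were higher with a median of 0.50, and Ndufv1 did not pass (0.13, adjusted p = 0.37). Nor did Ndufv1 pass without Stellate/Basket P56 replicate 3 (0.16, adjusted p = 0.083). Among the 29 accessory members 15 were higher and 2 lower, with a median of 0.24. Ndufa9, a subunit near the junction of the complex's arms, led them at 1.13 ± 0.09 (adjusted p = 2.0e-12). Without P56, complex I as a whole had 17 of 35 higher and 4 lower, in place of 20 and 2.

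Ndufa9 separated the cell types array by array. Its log2 values were 11.89, 11.84 and 11.88 in Purkinje P14 arrays and 10.80, 10.41, 10.41 and 10.94 in Stellate/Basket P14 arrays. At P28 the Purkinje values were 11.59, 11.90, 11.70 and 11.82 and the Stellate/Basket values 10.28, 11.03, 10.63 and 10.76. At P35 they were 11.53, 11.28, 11.50 and 11.30 against 10.58 and 10.80. The groups did not overlap at any of these ages, and the test called Ndufa9 at each of the 5 shared ages, with differences between 0.71 at P35 and 1.72 at P56. Ndufs1 was also called at each age, from 0.55 at P28 to 1.89 at P56. Its P28 arrays overlapped, at 10.97, 11.15, 10.27 and 10.59 in Purkinje cells and 10.29, 10.60, 10.36 and 9.52 in Stellate/Basket cells. These were the only members called in the same direction at all 5 ages. Without P56, Ndufa9 and Ndufs1 differed by 0.98 and 0.83 over the other 4 ages.

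Complex III followed, with 6 of 8 members higher, 0 lower and a median of 0.55. Uqcr10 and Uqcr11, its smallest subunits, were higher by 0.81 and 0.58. Uqcrfs1, the Rieske iron-sulphur protein that passes electrons to cytochrome c1, was higher by 0.77 ± 0.11 (adjusted p = 9.5e-07), and Uqcrc1, a core scaffold subunit, by 0.54. Uqcrh, the hinge protein, was higher by 0.56 and Uqcrb, a ubiquinone-site subunit, by 0.17. Uqcrc2, the partner of Uqcrc1, differed by 0.04 and Uqcrq by 0.22, and neither passed. Without P56, 6 were higher and 1 lower with a median of 0.43, and the lower one was Uqcrc2 (-0.21, adjusted p = 0.00027). The Uqcr10 arrays at P14 were at 10.37, 10.90 and 10.43 in Purkinje cells and 9.39, 9.69, 9.64 and 9.86 in Stellate/Basket cells, with no overlap.

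In ATP synthase 8 of 17 members were higher and 0 lower, with a median of 0.18. Of the 5 members of the catalytic F1 head, 4 were higher. These were Atp5c1 (the gamma subunit of the rotating stalk, 0.62 ± 0.08, adjusted p = 9.4e-08), Atp5b (the catalytic beta subunit, 0.46), Atp5d (delta, 0.36) and Atp5a1 (alpha, 0.18). Atp5e, the epsilon subunit, differed by 0.09 and did not pass. In the stalk and membrane part 4 of 12 were higher, among them Atp5o (the oligomycin sensitivity protein, 0.53) and Atp5h (subunit d, 0.31). The 3 genes for the same c-ring protein differed in their values: Atp5g1 was higher by 0.71 ± 0.16 (adjusted p = 5.0e-04), while Atp5g2 (0.24) and Atp5g3 (0.11) did not pass. Without P56, 7 members of ATP synthase were higher and 0 lower (median 0.14), 3 of them in F1, where Atp5a1 no longer passed (0.09, adjusted p = 0.066).

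Complex IV had the strongest members of all and otherwise the weakest shift: 2 of 14 tested members were higher and 1 lower, with a median of 0.00. The members far above the others were Cox6b2, known as a testis isoform of subunit 6b, at 1.96 ± 0.16 (adjusted p = 3.0e-12), and Cox7a1, the heart and muscle isoform of subunit 7a, at 1.80 ± 0.13 (adjusted p = 4.7e-13). These correspond to 3.88-fold and 3.49-fold. The widespread isoforms gave other values. Cox6a1 was lower in Purkinje cells by 0.29 ± 0.05 (adjusted p = 5.2e-06, log2 difference -0.29), and it was the only member whose group mean was lower at all 5 ages. Cox6b1 (0.08), Cox7a2 (-0.05), Cox7a2l (0.00), Cox8a (-0.01) and the other isoforms Cox6a2 (-0.21), Cox8b (0.05) and Cox8c (-0.11) did not pass. Cox7b2 was not tested, since none of its arrays rose above the filter. Ndufa4l2, the hypoxia-linked relative of Ndufa4, was lower by 0.42 ± 0.08 (log2 difference -0.42, adjusted p = 6.9e-05), and Ndufa4 itself (0.11) did not pass. Without P56, complex IV gave 3 higher and 2 lower (median 0.06): Cox8b passed as higher (0.26, adjusted p = 0.036) and Cox7c as lower (-0.74, adjusted p = 0.0017), beside Cox7a1, Cox6b2 and Cox6a1.

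Cox7a1 was near the low end of the scale in the youngest Purkinje arrays and in Stellate/Basket arrays up to P28. Its log2 values were 5.37, 5.54 and 5.40 in Purkinje P3 arrays and 5.78, 5.45 and 5.74 at P7. They were 9.42, 9.75 and 9.04 at P14. Every P14 array lay above every P7 array, and the step was 3.75 ± 0.31 (13.4-fold, adjusted p = 3.3e-11). At this same step the Purkinje markers rose from a mean of 9.46 to 12.86 and the interneuron markers went from 9.63 to 5.68, and their part in the step was not tested. The later Purkinje arrays were at 7.52, 8.48, 8.59 and 7.82 (P21), 8.43, 8.85, 8.60 and 8.29 (P28), 7.29, 7.36, 6.76 and 7.17 (P35) and 8.83, 7.40, 7.94 and 8.48 (P56). Stellate/Basket arrays were at 5.91, 5.97, 5.66 and 5.71 (P14), 5.30, 5.67 and 5.69 (P21) and 5.51, 5.93, 5.72 and 6.14 (P28). No Purkinje array overlapped them at these ages, and the differences were 3.59, 2.55 and 2.72. The P35 Stellate/Basket arrays stood at 6.99 and 6.36, where the difference of 0.47 did not pass (adjusted p = 0.35). At P56 they stood at 9.19, above the Purkinje range, and 7.77, within it, and Purkinje markers were at 12.55 and 11.25 in the same arrays. The Cox7a1 difference of -0.32 at P56 did not pass (adjusted p = 0.44). Averaged without P56, the Cox7a1 difference was 2.33 ± 0.15.

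Cox6b2 showed a similar course. Purkinje arrays were at 5.97, 5.60 and 5.68 at P3, at 5.81, 5.98 and 6.79 at P7, and at 8.35, 8.97 and 8.34 at P14, a step of 2.36 ± 0.36 from P7 (adjusted p = 6.2e-06). Stellate/Basket arrays were at 5.64, 5.70, 5.77 and 5.81 at P14 and at 6.13, 5.74, 5.99 and 6.07 at P28, below all Purkinje arrays of these ages. At P35 the values were 7.70, 7.97, 6.54 and 7.29 against 6.14 and 6.0 (difference 1.31, adjusted p = 0.014). At P56 they were 8.52, 7.10, 8.71 and 8.34 against 7.47 and 7.15, which overlap, and the difference of 0.86 did not pass (adjusted p = 0.064).

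**Figure D2:**
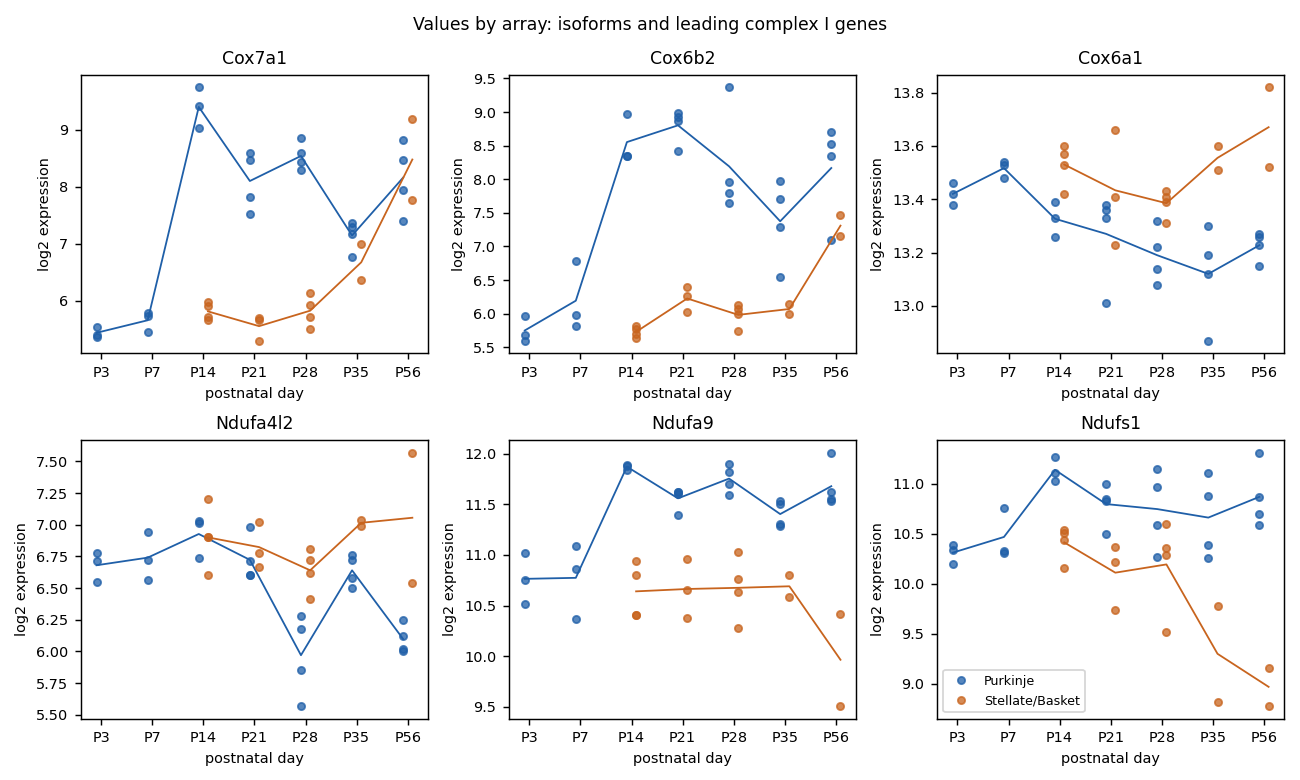
Log2 expression (y axis) in each array (points) by postnatal day (x axis) in Purkinje and Stellate/Basket cells, with lines through the group means, for Cox7a1, Cox6b2, Cox6a1, Ndufa4l2, Ndufa9 and Ndufs1. Cox7a1 goes from 5.45 to 5.78 in Purkinje arrays at P7 to 9.04 to 9.75 at P14, and Ndufa9 is higher in Purkinje arrays at each shared age.

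The stretches before the RefSeq start sites of the pair of complex IV isoforms are shown because these genes differed most between the cell types. Each is the 250 bases upstream of the start, read 5′ to 3′ on the gene's strand, from RefSeq on build GRCm38.p6. Cox7a1 lies at chr7:30183921-30184170 on the plus strand and Cox6b2 at chr7:4753095-4753344 on the minus strand. They hold 4 and 8 CpG dinucleotides, where the median was 14 over the members' windows and 6 over all promoter windows. None of the 4 motifs described further on was found in them, so no base is in capitals.
Cox7a1: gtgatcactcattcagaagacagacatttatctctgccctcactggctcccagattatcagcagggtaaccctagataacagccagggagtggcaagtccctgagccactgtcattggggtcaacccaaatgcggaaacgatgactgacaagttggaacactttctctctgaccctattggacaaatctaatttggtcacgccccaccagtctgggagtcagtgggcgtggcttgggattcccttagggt
Cox6b2: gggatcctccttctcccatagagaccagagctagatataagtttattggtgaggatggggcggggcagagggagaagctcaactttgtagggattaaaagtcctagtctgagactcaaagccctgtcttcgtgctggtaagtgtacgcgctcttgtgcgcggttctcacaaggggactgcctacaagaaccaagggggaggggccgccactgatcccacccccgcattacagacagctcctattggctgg

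The number of members that differed between the cell types changed with age. At P14, 11 members were higher in Purkinje cells and 0 lower (12.6% and 10.7% of all genes), and at P21, 21 were higher and 0 lower (14.2% and 11.7%). At P28, 38 were higher and 4 lower (26.3% and 18.2%), or 30 and 8 after quantile normalization, and 16 of the 38 reached a log2 difference of at least 1, as 8.36% of all genes did. At P35 only 3 were higher and 11 lower (9.58% and 9.72%). At P56, 22 were higher and 6 lower (22% and 24.9%), and after quantile normalization 16 and 12. The median member difference was 0.18, 0.36, 0.46, -0.23 and 0.14 at these ages in turn. Quantile normalization changed these medians to 0.14, 0.24, 0.38, -0.29 and -0.08. In a fit of only the groups compared, without the spread shared with the other groups, 2 members were called at P35. The same kind of fit called 6 at P56, all of them higher. With array weights 29 members were called at P14, 42 at P21 and 53 at P28. Several counts turned on single arrays: the P14 count was 5 without Purkinje P14 replicate 2 and 7 without Stellate/Basket P14 replicate 3. The P35 count was 3 and 6 without either Stellate/Basket array and 8 without Purkinje replicate 3, and the P56 count was 16 without Stellate/Basket replicate 3 (10 higher and 6 lower). In all, 62 members were called at 1 or more ages and 12 at none. The share of all genes called at 1 or more ages was not taken, so this count is not read as a trait of the members. Of the 62, 12 had higher Purkinje means at all 5 ages, among them Atp5c1, Ndufa10, Ndufs8 and Uqcrfs1 as well as Ndufa9, Ndufs1 and Cox6b2. The share of all genes with such means was not taken either. Atp5e, Cox8b, Ndufa2, Ndufa6, Ndufb4 and Uqcrc2 were called in opposite directions at different ages.

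**Figure D3:**
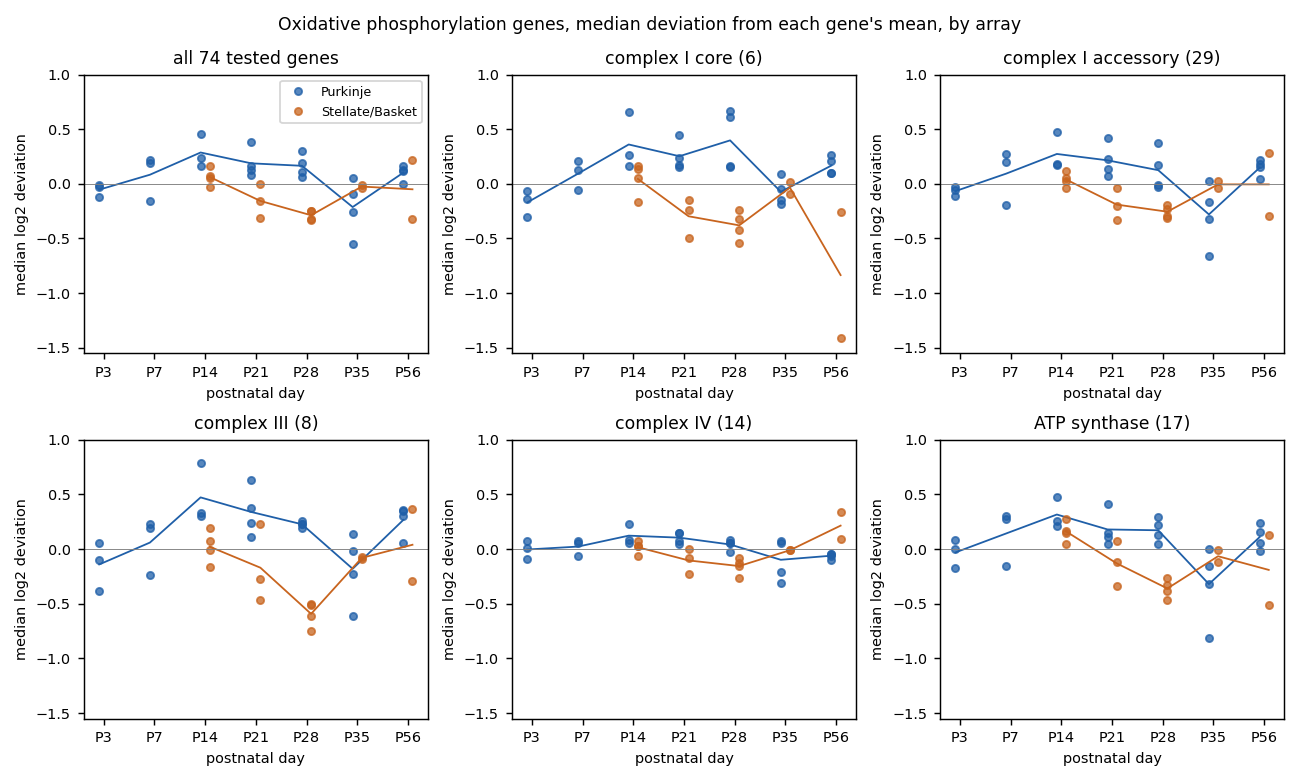
Median over the genes of each panel of the log2 deviation from the gene's mean over the 40 arrays (y axis), 1 point per array, by postnatal day (x axis), with lines through group means. Purkinje P35 arrays reach down to -0.55 over all members, and the complex I core in the Stellate/Basket P56 arrays stands at -0.26 and -1.41.

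At P28, 61 of the 74 members had a higher mean in Purkinje arrays and 13 a lower one, while 56.1% of all genes had a higher one. Ndufa3, an accessory complex I subunit, was at 12.74, 12.43, 12.55 and 12.44 in Purkinje P28 arrays and at 10.56, 10.97, 10.90 and 11.10 in Stellate/Basket P28 arrays (difference 1.66 ± 0.22, adjusted p = 5.0e-07). In Stellate/Basket arrays of P14 it had been at 11.92, 12.05, 11.79 and 12.12. Atp5o was at 11.67, 11.63, 11.26 and 10.82 against 9.42, 9.55, 9.45 and 10.02 (1.73 ± 0.27, adjusted p = 4.3e-06). Both genes separated the cell types without overlap at this age. The median over all members was -0.33 to -0.25 in the 4 Stellate/Basket P28 arrays and 0.06 to 0.30 in the Purkinje arrays. Glial markers were at 10.51 to 10.61 in those 4 Stellate/Basket arrays and at 6.65 to 7.55 in the Purkinje arrays, and their part in the difference was not tested. Of the 4 members that were lower in Purkinje cells at P28, Cox7c (-1.15) and Ndufb4 (-0.47) have dim probe sets (means 6.87 and 5.68), and Uqcrc2 (-0.53) and Ndufa4l2 (-0.67) were the others.

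Across Purkinje development from P3 to P56, 12 members rose and 3 fell, against 15.8% and 18.8% of all genes, and the member median was 0.17 against -0.04. A log2 change of at least 1 was reached by 2 of them (16.5% of all genes). Cox7a1 (2.73 ± 0.29) and Cox6b2 (2.42 ± 0.34) led. Ndufs3 (1.0), Ndufa9 (0.91), Ndufb4 (0.89), a small membrane-arm subunit, and Uqcrc1 (0.79) followed. Cox6b1, the widespread partner isoform of Cox6b2, fell by 0.65 ± 0.16 (log2 -0.65, adjusted p = 0.0013), Ndufa4l2 by 0.59 (-0.59) and Ndufb9 by 0.51 (-0.51). By complex, 5 of 35 complex I, 2 of 8 complex III, 3 of 14 complex IV and 2 of 17 ATP synthase members rose. Ending at P35 in place of P56, the comparison turned: 5 members rose and 13 fell (16.7% and 15.6% of all genes), with a median of -0.23. Cox7a1 (1.71), Cox6b2 (1.62), Ndufa9 (0.64), Uqcrc1 (0.59) and Atp5d (0.47) were the 5 that rose, and Atp5e (-1.54) and Atp5o (-1.14) fell most. The P3 arrays held interneuron markers at 9.65 to 9.72 and Purkinje markers at 6.66 to 8.91, and the part of this in the change was not tested.

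From P14 on, with Purkinje markers above 12.5 in all arrays, 0 members rose and 6 fell (3.45% and 10.6% of all genes). Cox7a1 fell by 1.24 ± 0.29 (-1.24, adjusted p = 0.0041), Ndufa4l2 by 0.83 (-0.83) and Cox6b1 by 0.70 (-0.70). Cox8c (-0.55), Ndufb9 (-0.45) and Atp5d (-0.39) fell by less. The Ndufa4l2 arrays were at 7.01, 6.74 and 7.03 at P14 and at 6.12, 6.25, 6.0 and 6.02 at P56, without overlap. Cox7a1 alone changed by at least 1 (1.69% of all genes). The count was 3 without Purkinje P14 replicate 2, and with P35 in place of P56 as the last age it was 18, all of them lower (0.955% of all genes lower).

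Step by step, most member calls in Purkinje arrays fell on 3 intervals. The first of them, P7 to P14, called a smaller share of members than of all genes (8.11% against 10.5% higher, 0% against 10.6% lower). From P3 to P7 and from P14 to P21 limma called 0 members, and in both steps it called 0.0401% of all genes higher and 0.0286% lower. At an unadjusted p under 0.05, 1 member was higher in the first of these steps and 1 lower in the other. From P7 to P14, 6 rose and 0 fell (10.5% and 10.6% of all genes): Cox7a1, Cox6b2, Ndufa9 (1.10), Atp5d (0.71), Atp5h (0.36) and Uqcrc2 (0.28). From P21 to P28 only Ndufa4l2 (-0.75) and Uqcrc2 (-0.44) were called, both lower (1.33% of all genes, with 1.49% higher). From P28 to P35, 10 fell and 1 rose (0.767% and 0.566% of all genes), and from P35 to P56, 23 rose and 2 fell (7.67% and 16.7%). Both counts depended on the processing. For P28 to P35, a fit of only the groups compared called 0 members and array weights called 35. For P35 to P56, adding the 90th percentile to the model left 3 higher and 0 lower, while averaging the probe sets of a gene called 40. Quantile normalization gave 1 higher and 9 lower in the earlier step, and 13 higher and 1 lower in the later.

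The low point at P35 was deepest in 2 of the 4 arrays. The median over all members was 0.05, -0.09, -0.55 and -0.26 in Purkinje P35 replicates 1 to 4. Atp5e, which led the step with -1.41 ± 0.27 (adjusted p = 0.0078), was at 11.42, 11.54, 10.92 and 10.83 at P28, at 10.50, 10.06, 8.89 and 9.61 at P35, and at 10.88, 10.66, 10.92 and 11.03 at P56. All P35 values lay below all values of both neighbouring ages, and replicate 3 was lowest. Ndufs4, a late-assembling accessory subunit of complex I, ranged from 9.90 to 10.08 at P28 and was at 9.24, 9.12, 7.52 and 8.54 at P35 (-1.38 ± 0.29, adjusted p = 0.016). Without replicate 3 the P28 to P35 step called 1 member, without replicate 4 it called 4 and without replicate 1 it called 22. It called 4 and 7 without P28 replicates 1 and 2, and 18 without either Stellate/Basket P56 array, which enters through the shared variance. The P35 to P56 step called 16 without Purkinje P35 replicate 3 or P56 replicate 4. With replicates 3 and 4 left out limma called 0 in the P28 to P35 step (3 higher and 15 lower at an unadjusted p under 0.05), the P35 to P56 step called 8 higher and 3 lower, and the cell type difference at P35 was 5 higher and 3 lower in place of 3 and 11. Purkinje markers were at 12.67 and 12.69 in these arrays, against 12.81 and 12.75 in replicates 1 and 2. Xist was at 7.03 and 6.83 in replicates 3 and 4, against 11.12 and 10.68. Their 90th percentiles were 9.19 and 9.14, against 8.82 and 8.79. Neither was tested as a cause of the low point. The median over the F1 members of ATP synthase was 0.08 and 0.05 in replicates 3 and 4, against -0.05 and -0.19.

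**Figure D4:**
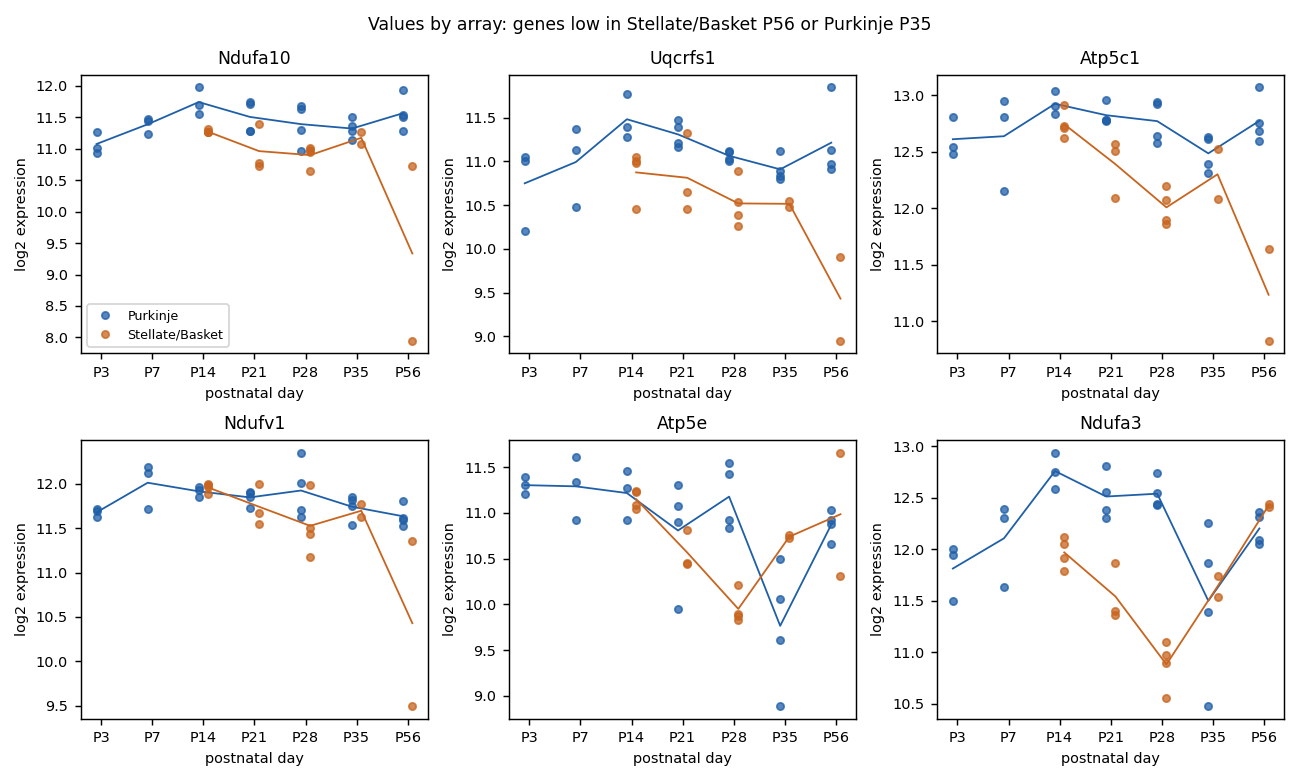
Log2 expression (y axis) in each array (points) by postnatal day (x axis), with lines through group means, for Ndufa10, Uqcrfs1, Atp5c1, Ndufv1, Atp5e and Ndufa3. Atp5e reaches 8.89 in a Purkinje P35 array, and Ndufa10 stands at 10.72 and 7.95 in the arrays labelled Stellate/Basket P56.

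In the arrays labelled Stellate/Basket, 4 members rose and 18 fell from P14 to P56 (17.7% and 18.5% of all genes). After quantile normalization the split was 8 and 11, and 8 changed by a log2 value of at least 1 (18.7% of all genes). Among the groups of subunits, 5 of 6 complex I core members fell (median -0.77) and 3 of 5 F1 members, whereas 2 of 29 accessory complex I members fell and 1 rose. Without P56 replicate 3, 2 of the 6 core members fell (Ndufs1 and Ndufv1, median of the core -0.20) and 2 of the 5 F1 members. With P35 as the last age, 1 core member and 0 F1 members fell by limma's test, with medians of -0.06 and -0.20. Ndufa10, an accessory subunit, fell by 1.94 ± 0.36 (-1.94, adjusted p = 7.8e-05), Ndufv1 by 1.53 (-1.53), Atp5c1 by 1.51 (-1.51), Uqcrfs1 by 1.45 (-1.45) and Ndufs1 by 1.44 (-1.44). Cox7a1 rose by 2.67 ± 0.33 and Cox6b2 by 1.58 ± 0.38, the largest rises, with Ndufa12 (0.52) and Cox8c (0.51) behind them.

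The P56 arrays behind this change differed from each other. Atp5c1 was at 12.73, 12.71, 12.62 and 12.91 at P14 and at 11.64 and 10.83 at P56. Uqcrfs1 was at 10.98, 11.05, 10.46 and 11.01 and then at 9.91 and 8.95. Both genes lay below every P14 array in both P56 arrays. Ndufa10 was at 11.31, 11.26, 11.26 and 11.26 at P14 and at 10.72 and 7.95 at P56, and Ndufv1 was at 11.36 and 9.50 at P56, below all its P14 arrays. Replicate 3, with the lower values, had the lowest 90th percentile of all 40 arrays (8.55). Without it 10 members were called, 6 of them lower, and without replicate 1, 33 were called, 28 of them lower. The Ndufa10 change was -0.55 without replicate 3 and -3.32 without replicate 1. Ndufs1, Uqcrfs1, Atp5c1 and Uqcrc2 passed with either array left out. With the 90th percentile as a covariate 12 were called.

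Since both P56 arrays carry Purkinje markers in place of interneuron markers, the same cell type was also followed from P14 to P35. Then 1 member rose and 2 fell (6.14% and 5.88% of all genes). Ndufs1 fell by 1.11 ± 0.28 (-1.11, adjusted p = 0.0074), from 10.54, 10.44, 10.16 and 10.51 at P14 to 8.82 and 9.78 at P35. Ndufb2 fell by 0.68 (-0.68) and Cox6a2 rose by 0.82. Between neighbouring ages few members were called. These were Ndufs5 (-1.03) and Atp5h (-0.44) from P14 to P21 (1.78% of all genes lower and 2.05% higher), Atp5o (-1.10) from P21 to P28 (0.944% lower) and Cox6a2 (0.82) from P28 to P35 (0.984% higher). From P35 to P56, 3 rose and 8 fell (8.61% and 10.8%), led by Cox7a1 (1.80) and Ndufa10 (-1.84), and 5 were called without P56 replicate 3 and 25 without replicate 1.

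The changes from P14 to P56 differed between the cell types for 19 members, 13 with the Purkinje change above the Stellate/Basket change and 6 below it (15.4% and 21% of all genes, and 8 and 13 members after quantile normalization). A log2 difference of at least 1 was reached by 10 (20.1% of all genes). Without Stellate/Basket P56 replicate 3, 2 members were above (Atp5c1 and Uqcrc2) and 7 below, and neither Ndufa10 (0.38, adjusted p = 0.41) nor Ndufv1 (0.31, adjusted p = 0.44) passed. The Purkinje change was above for 22 and below for 5 without replicate 1. Cox7a1 gave -3.91 ± 0.44 (adjusted p = 5.9e-08) and Cox6b2 -1.96 ± 0.51, while Ndufa10 gave 1.76, Atp5c1 1.36 and Ndufv1 1.24. With P35 as the last age, 4 were called, all of them lower (1.83% of all genes): Cox7a1 (-3.12 ± 0.44), Ndufa2 (-1.19), Atp5d (-0.73) and Uqcrc2 (-0.58).

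**Figure D5:**
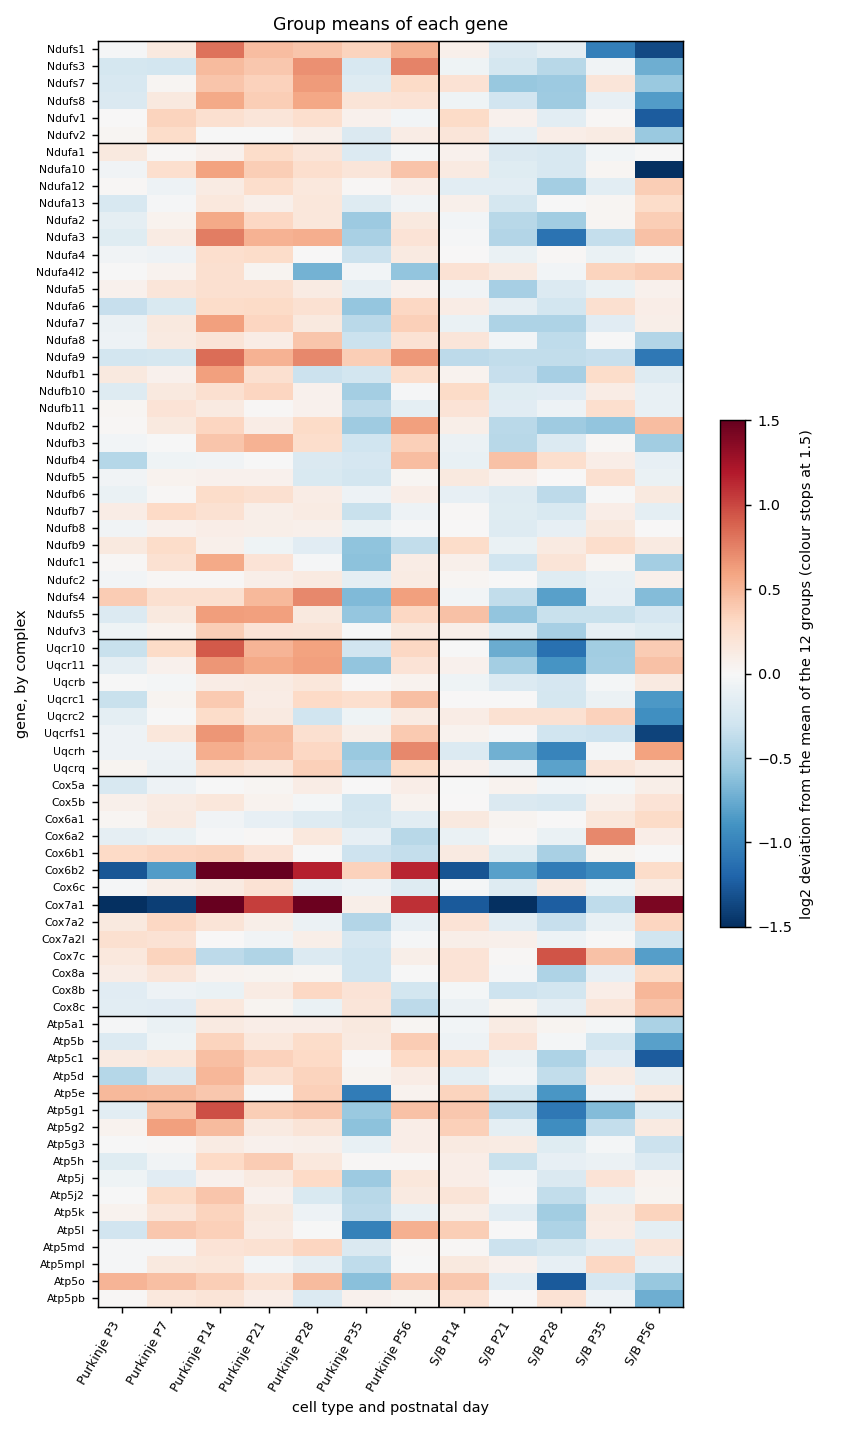
Mean log2 value of each of the 74 genes (y axis, ordered by complex with lines between groups) in the 12 groups (x axis), as the deviation from the gene's mean over the groups, red for above and blue for below. Cox7a1 and Cox6b2 show the widest ranges, and the complex I core is blue in the arrays labelled Stellate/Basket P56.

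The members also differed in how much they moved at all. Group means of Cox7a1 spanned 3.97 log2 units over the 12 groups, those of Cox6b2 3.07 and those of Ndufa10 2.41. Among the narrowest, Ndufc2 spanned 0.31, Cox5a 0.35, Ndufb8 0.35, Uqcrb 0.42 and Atp5g3 0.46. These probe sets are bright, with mean log2 values from 12.08 to 13.65, whereas Cox7a1 and Cox6b2 average 7.07 and 7.10.

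Other genes of energy metabolism, among them chain subunits outside the rule, were counted in the cell type average beside the members. The same test called 28.7% of all genes higher and 24.3% lower, or 32.9% and 22.5% without P56. Of 23 assembly factors, 19 were higher and 0 lower in Purkinje arrays (median 0.65). Ndufaf1, which helps assemble complex I, was higher by 1.74 ± 0.13, and Tmem70 and Atpaf1, which help assemble ATP synthase, by 1.59 and 1.58. Of 19 genes of the citric acid cycle and pyruvate dehydrogenase, 15 were higher and 1 lower (median 0.61), led by Sdhd (1.58) and Ogdh (1.14). Without P56 the counts were 18 and 0 for assembly factors and 12 and 1 for the cycle. Glycolysis genes were mixed, with 9 of 15 higher (Aldoc 1.64, Pkm 1.19) and 5 lower (Hk2 -1.49). Of 9 carriers and porins 5 were higher and 1 lower, Slc25a27 (-1.26). Of the 6 tested chain genes outside the rule 4 were higher and 1 lower, with Cycs, the electron carrier cytochrome c, at 0.20, and Cox4i1, the main isoform of complex IV subunit 4, was lower (-0.35). Without P56, glycolysis had 5 higher and 6 lower, carriers and porins 3 and 3, and the chain genes 2 and 1.

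Regulators of mitochondrial genes gave 4 higher and 6 lower of 16, or 3 and 5 without P56. The shares of all genes were 28.7% and 24.3%, or 32.9% and 22.5% without P56. Esrrg, a nuclear receptor, was lower in Purkinje cells (log2 difference -2.93 ± 0.15, adjusted p = 4.2e-17). Its group means were 10.63 and 10.41 in Purkinje arrays at P3 and P7, 6.11 to 7.18 from P14 on, 9.75 to 10.46 in Stellate/Basket arrays up to P35 and 6.36 at P56. Ppargc1a, the coactivator PGC-1alpha, was lower (-0.80 ± 0.18), while Esrra (0.41) and Tfb1m, a mitochondrial transcription factor (0.89), were higher and Tfam (0.35) did not pass. In Purkinje cells from P3 to P56, 9 of 23 assembly factors and 11 of 19 cycle genes rose and 0 fell (15.8% and 18.8% of all genes). Tfam (1.11) and Esrra (1.09) were higher and Esrrg lower (-3.46). Up to P35, 4 assembly factors and 5 cycle genes rose and 0 fell (16.7% and 15.6% of all genes). From P14 to P56, 0 assembly factors were called, and 0 cycle genes rose and 1 fell (3.45% and 10.6% of all genes). In the arrays labelled Stellate/Basket from P14 to P56, 8 cycle genes fell and 1 rose, and 8 of 9 carriers fell. Of all genes, 18.5% fell and 17.7% rose. Up to P35, 3 cycle genes and 2 carriers fell and 0 of either rose (5.88% and 6.14% of all genes).

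Promoter windows were searched for short sites of factors known to act on respiratory genes, because 36 members were higher in the same cell type. RefSeq windows of 300 bases (250 before and 50 after the start, GRCm38.p6) were found for 63 of the 75 genes, 68 windows in all, and 12 members had none: Cox8c, Ndufa2, Ndufb9, Uqcrq, Cox6c, Uqcrb, Cox6a2, Uqcrc2, Atp5a1, Atp5mpl, Ndufs1 and Ndufa4l2. Both strands were read, each match exact, and no member window held more than 1 of the 4 motifs. AANATGGCG (YY1) was in 13.2% of member windows and 2.38% of all 32851 windows. CCGGAAGT (GABP) was in 7.35% and 3.89%, the NRF1 motif (the capitals in the Uqcrc1 sequence, the same on both strands) in 5.88% and 0.971%, and TNAAGGTCA (the estrogen-related receptors) in 2.94% and 1.28%. Any of them was in 20 member windows (29.4%) and in 8.14% of all windows. Of the 36 windows of members called higher in Purkinje cells 10 held a motif, and so did 10 of the other 32. A match is a description of letters, not evidence of a site. The 30 bases around the match are shown, with the motif in capitals, for members that were higher in Purkinje cells (Ndufa9 at chr6:126849096-126849125, Ndufs7 at chr10:80249463-80249492, Ndufa7 at chr17:33824617-33824646, Uqcrh at chr4:116075063-116075092, Uqcr11 at chr10:80406869-80406898, Uqcrc1 at chr9:108936668-108936697) and for Cox6a1 (chr5:115349101-115349130), which was lower. Ndufs7, Ndufa7 and Uqcrc1 lie on the plus strand and the others on the minus strand, and each is read on its gene's strand.
Ndufa9 (YY1): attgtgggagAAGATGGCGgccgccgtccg
Ndufs7 (YY1): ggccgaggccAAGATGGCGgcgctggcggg
Ndufa7 (YY1): gagcggaaggAATATGGCGtccgctactcg
Uqcrh (GABP, reverse strand): gagtatgccgcACTTCCGGccaggtcgccg
Uqcr11 (GABP): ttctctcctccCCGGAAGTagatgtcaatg
Uqcrc1 (NRF1): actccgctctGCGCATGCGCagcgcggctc
Cox6a1 (NRF1): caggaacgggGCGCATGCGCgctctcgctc

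Several members are read by more than 1 probe set (45 of 75 genes), and these differed in places. Of 150 member probe sets tested one by one, 66 were higher in Purkinje cells on the average of the ages and 12 lower, against 27.5% and 24.9% of all probe sets. For Atp5a1, Atp5g1, Ndufb2 and Ndufb9 probe sets passed in opposite directions. The 3 of Atp5a1 gave 0.18, 0.55 and -2.38, in order of falling brightness, and those of Ndufb9 gave -0.36, -0.38 and 0.22. Uqcrq did so at P28 and Ndufs8 at P56. Small subunits of this machinery have many processed copies in the genome. The suffix of probes that can match other transcripts (x_at) is carried by 27 member probe sets. The named values of Ndufa3, Ndufa7, Ndufs8, Ndufv1, Ndufa12 and Cox8a rest on such probe sets and are less certain. Another 16 end in s_at, among them those used for Atp5e and Atp5c1, and their match to other transcripts was not tested.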

How the data were processed

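The values were used as the authors deposited them: log2 expression per probe set, for which the submitters' processing notes name GCRMA (background correction and summarisation of Affymetrix probes) and R 2.9.1. The order and settings of those steps were not stated. Array medians lay between 5.91 and 6.16 and the whole distributions differed, so no rescaling was added and quantile normalization was an alternative. The number of arrays limits the precision.

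Of 42 deposited columns 40 were used. Stellate/Basket P35 replicate 3 and P56 replicate 2 equalled the mean of 2 other columns of their group (tolerance 1e-08) and were left out. The labels call the replicates biological but do not say which animals they came from.

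Platform annotation gave 34958 probe sets 1 symbol, 932 several and 9211 none. The brightest single-symbol probe set stood for a gene, and 17478 genes above log2 5 in at least 3 arrays were tested. A model over 12 groups was fitted with limma 3.58.1 (R 4.3.3), and p-values were adjusted by Benjamini-Hochberg within each of 20 comparisons, with a threshold of 0.05. The scripts were tested on simulated data. Figures were drawn with matplotlib 3.10.9. Signed differences are Purkinje minus Stellate/Basket or later minus earlier.

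Members, pathway lists and markers were chosen with earlier results of these data known. Named genes are the 5 largest passing differences each way per comparison, isoform families whatever their values, the widest and narrowest range per complex, members with opposed probe sets, and up to 3 genes per pathway list with some regulators. Other members that did not pass, or that fill out a complex, were chosen after their values were seen. Alternatives covered normalization, filter, array weights, thresholds, covariates, a replicate block and leaving out each array. Leaving out Purkinje P35 replicates 3 and 4 was chosen after seeing the data.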

Additional observations from a re-analysis of the deposited data

Results flagged for a closer look

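Of 120 groups of 4 arrays checked, 6 held an array far from the other 3, and chance marks about 5% of such groups. Ndufa9 was at 11.39 in Purkinje P21 replicate 1, with the others at 11.60 to 11.62. Uqcrfs1 was at 10.46 in Stellate/Basket P14 replicate 3 (others 10.98 to 11.05), and Atp5c1 was at 12.96 in Purkinje P21 replicate 4 (others 12.77 to 12.78). Ndufa10 was at 11.31 in Stellate/Basket P14 replicate 1 (others 11.26), Atp5e at 10.21 in Stellate/Basket P28 replicate 4 (others 9.83 to 9.89) and Cox6a1 at 13.01 in Purkinje P21 replicate 1 (others 13.33 to 13.38).

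The change from P14 to P56 differed between the cell types by limma's interaction term for 11 named members. The Purkinje change exceeded the Stellate/Basket change by 1.76 for Ndufa10, 1.51 for Cox7c, 1.36 for Atp5c1, 1.24 for Ndufv1, 1.18 for Uqcrfs1 and 1.17 for Ndufs1 (log2). The difference was -0.99 for Ndufa4l2, -1.02 for Ndufa3, -1.06 for Cox8c, -1.96 for Cox6b2 and -3.91 for Cox7a1. All of them use the 2 arrays labelled Stellate/Basket P56, in which Purkinje markers are high and interneuron markers low. Without Stellate/Basket P56 replicate 3, the values were 0.38 for Ndufa10, 0.31 for Ndufv1, 0.70 for Uqcrfs1, 0.98 for Ndufs1, 1.67 for Cox7c, -0.48 for Ndufa4l2 and -1.03 for Ndufa3, and none of these 7 passed. Atp5c1 (0.96), Cox8c (-0.66), Cox6b2 (-2.12) and Cox7a1 (-4.62) still passed. Without replicate 1, Cox7c (1.36, adjusted p = 0.10) and Ndufa3 (-1.0, adjusted p = 0.062) did not pass, Ndufa10 was at 3.15 and Ndufv1 at 2.18.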

How the results depend on the processing

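The main counts of members called were 39 (cell type average), 15 (Purkinje P3 to P56), 6 (Purkinje P14 to P56), 22 (Stellate/Basket P14 to P56), 19 (difference between these changes), 62 (at 1 or more ages) and 38 (in 1 or more steps). For the counts of 62 and 38 the share of all genes was not taken. Array weights, whose estimation stopped before it converged, gave 31 and 16 in Purkinje cells (from P3 and from P14), 5 in Stellate/Basket cells, 6 for the difference and 58 for the steps. The 90th percentile as a covariate gave 12 for Stellate/Basket cells and 7 for the difference, and a fit of only the groups compared gave 7 for Stellate/Basket cells. Requiring a log2 difference of at least 1 left 4, 2, 1, 8, 10, 26 and 17. An adjusted p under 0.01 left 3 (Purkinje P14 to P56), 13, 8 and 21 (steps). With P35 as the last age, Purkinje cells from P14 gave 18, Stellate/Basket cells 3 and the difference 4. Leaving out 1 array gave 36 to 43, 12 to 18, 3 to 8, 10 to 33, 9 to 27, 58 to 66 and 32 to 52. The causes were not tested.

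Of 132 named pairs of member and comparison that passed, 7291 values under alternatives kept direction and passed in 6892 cases, kept direction but did not pass in 392 and changed direction in 7. The pairs were picked among the largest passing differences. In 40 of the alternatives 1 array was left out, often from a group outside the comparison, which leaves the difference itself unchanged. The high share that kept its call is therefore not read as a separate check. Cox8b at P56 went from -0.78 to 0.01 with the 90th percentile as a covariate. With P35 as the last age, Cox8c went to 0.03 in Purkinje cells, Ndufa12 to -0.01 and Uqcrc2 to 0.24 in Stellate/Basket cells, and the difference between the changes to -0.32 for Ndufa10, -0.14 for Cox7c and -0.21 for Uqcrfs1.

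Same-numbered arrays of the cell types correlated at -0.12 to 0.22 in their deviations (median 0.06), and 5 of 14 pairs were above 0.1. Arrays with different numbers correlated at -0.23 to 0.23 (median -0.03), and 7 of 42 pairs were above 0.1. The ranges overlap, so these values do not decide whether the replicate numbers pair the arrays. With the replicate number as a block the counts were 38, 15, 6, 22, 14, 59 and 37, which does not show whether arrays of the same age were paired.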
